A study of Homo sapiens with 8 samples.

Results

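The enzymes that supply and balance deoxynucleotides, the building blocks of DNA, were followed as 8 genes: RRM1, RRM2, TYMS, DTYMK, TK1, DCK, DUT and SAMHD1. They were chosen by gene symbol from a table of 58870 genes, each was present in it once, and all 8 passed the filter on low reads. Ribonucleotide reductase, built from the large subunit RRM1 and the small subunit RRM2, turns ribonucleotides into deoxyribonucleotides and is the rate-limiting step of their supply. Thymidylate comes from dUMP through TYMS or from salvaged thymidine through TK1, and DTYMK carries it on towards dTTP. DCK salvages deoxycytidine and other deoxynucleosides, DUT hydrolyses dUTP and so keeps uracil out of DNA, and SAMHD1 breaks deoxynucleoside triphosphates down. RRM2, TYMS and TK1 are known as S phase genes of dividing cells, whereas SAMHD1 is known for its activity in resting ones.

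The cells were BJ, a human skin fibroblast line, in a form named BJ-HRAS on all 8 labels. There were 4 groups of 2 libraries: clones 15 and 54 are WT, clones 66 and 69 lack SNORA13 (KO), and each was sampled untreated and after 7 days in 100 nM of (Z)-4-hydroxytamoxifen (4-OHT). SNORA13 is a small nucleolar RNA of the H/ACA class. As background, 4-OHT is an oestrogen receptor ligand that serves to activate proteins fused to that receptor, HRAS among them, and prolonged HRAS activity is a known trigger of senescence, a durable exit from division. The labels do not describe the HRAS construct or how SNORA13 was removed, and each genotype rests on 2 clones, so a difference between genotypes and one between the clones that stand for them cannot be told apart. An effect of 4-OHT and one of HRAS cannot be told apart either, since every library came from BJ-HRAS cells. The untreated libraries are listed at day 0 and the treated ones at day 7. An effect of 4-OHT and one of time in culture therefore cannot be told apart.

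SNORA13 had 6 and 4 reads in WT clones 15 and 54 without 4-OHT and 5 and 7 with it, and 0 reads in all 4 KO libraries. Library totals were 22.1 to 24.9 M reads, and Pearson r between both clones of a group, taken across 16543 genes, was 0.98361 to 0.99203. RNA of the signal recognition particle took 9.18% to 10.13% of reads without 4-OHT, 9.72% in WT clone 15 with it and 14.77% to 16.1% in the other 3 libraries with it. All 10 fibroblast markers listed were measured, with a summed level of 3823 to 4262 RPKM without and 1765 to 2045 RPKM with 4-OHT. VIM held most of the treated sum and rose, from 797 to 1253 RPKM in WT and from 783 to 1149 RPKM in KO. At a limma adjusted p under 0.05, 7 of the 10 were lower and 1 higher with 4-OHT in WT. In KO 8 were lower and 2 higher, where 24.2% of all genes were lower in WT and 27.8% in KO. DCN, for example, went from 61.6 to 0.93 RPKM in WT and from 74.0 to 1.07 RPKM in KO. Among 7 epithelial markers, KRT5 and KRT14 were at 0 in all libraries, 5 stayed under 1 RPKM, and the sum (492 to 800 RPKM without, 263 to 290 RPKM with 4-OHT) came almost wholly from KRT18. All 5 endothelial markers stayed under 1 RPKM (sum 0.178 to 0.411). The immune sum was 7.87 to 15.5 RPKM, mostly CD14, with CD68 at 0, and the melanocyte sum was 3.94 to 18.1 RPKM, mostly MITF. With 4-OHT the fibroblast, epithelial and melanocyte sums fell in each clone, while the immune and endothelial sums rose in some clones and fell in others. The part of these shares and sums in the results was not tested.

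By GENCODE release 29 on GRCh38, the 8 protein-coding genes lie on 7 chromosomes. RRM1 (ENSG00000167325.15) spans chromosome 11 from 4094707 to 4138876 on the plus strand. RRM2 (ENSG00000171848.15) spans chromosome 2 from 10120698 to 10131419 on the plus strand, and DTYMK (ENSG00000168393.13) the same chromosome from 241675742 to 241686991 on the minus strand. TYMS (ENSG00000176890.16) lies on chromosome 18 from 657604 to 673578 (plus) and TK1 (ENSG00000167900.12) on chromosome 17 from 78174075 to 78187233 (minus). DUT (ENSG00000128951.14) lies on chromosome 15 from 48331011 to 48343373 (plus), DCK (ENSG00000156136.10) on chromosome 4 from 70992538 to 71030914 (plus) and SAMHD1 (ENSG00000101347.9) on chromosome 20 from 36889773 to 36951901 (minus). Some share exon sequence with neighbours. TYMS overlaps 967 exon bases of the opposite-strand gene ENOSF1, which had 199 to 396 reads per library against 44 to 209 for TYMS, and the strand setting of the counting is not given in the sources used here, so reads of this stretch cannot be assigned between them. DCK shares 199 exon bases with MOB1B (44 to 142 reads). The other overlapping genes, among them TYMSOS, held at most 15 reads. Processed copies of RRM2 (3), TYMS (2) and DUT (8) in the table summed to at most 9 reads in a library.

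Short stretches around the transcription starts are shown because 6 of the 8 genes rose together in treated KO clones (below), and 3 known promoter elements of cell cycle genes can be looked up in them. Sequences come from RefSeq (GRCh38.p14), in windows from 250 bases before to 50 after each start. All stretches shown except that of RRM1 lie wholly in exons of the same gene in GENCODE release 29. They are a selection, and some matches in the windows are not shown. Searched on both strands were the E2F site (TTTCCCGC, TTTGGCGC, TTTCGCGC or TTTGCCGC), the CCAAT box (CCAAT) and the CHR element (TTTGAA or TTCGAA). Of 35116 windows of this length, 3.31% hold the first, 34.6% the second and 16.4% the third. Capitals mark the matches, none of which overlap, written on the strand of the gene.
RRM2, chr2:10122614-10122631 (+): agCCAATgggaagggtcg
RRM2, chr2:10122644-10122661 (+): agCCAATgggaagggccg
RRM2, chr2:10122671-10122688 (+): agCCAATgggaagggccg
TK1, chr17:78187118-78187132 (-): ctgATTGGccccatg
TK1, chr17:78187083-78187107 (-): cggctcgtgATTGGccagcacgccg
DTYMK, chr2:241686887-241686912 (-): cccggCCAATcccTTCGAAtttggcc
RRM1, chr11:4094645-4094669 (+): gcatgtccatatCCAATggggccca
TYMS, chr18:657607-657629 (+): gacggccGCGGGAAAaggcgcgc
DUT, chr15:48332152-48332181 (+): ctgGCGGGAAAtttcggtTTTGGCGCgctc
DCK, chr4:70993663-70993683 (+): cctccgcGCGCCAAAgtcaaa
SAMHD1, chr20:36951736-36951765 (-): gcaggaggCCAATaggctgCCAATactcct

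RRM2 has 3 near-copies of a CCAAT stretch in a row. Windows of RRM1, RRM2, TK1, DTYMK and SAMHD1 held CCAAT, those of TYMS, DUT and DCK held an E2F site, and those of RRM1, DUT and DTYMK held a CHR element. DUT was searched in 4 windows and RRM2 and TK1 in 2 each, the others in 1. A match is a description of letters and not a bound site.

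The first comparison asked how the enzymes changed with 4-OHT in WT clones. DTYMK rose, TK1 and DUT fell, and the reductase subunits, TYMS, DCK and SAMHD1 did not pass the test. A gene was called when its limma p, Benjamini-Hochberg adjusted over all 16543 genes tested, was under 0.05. On this rule 1 of 8 enzymes was higher and 2 were lower, where 24.7% and 24.2% of all genes were called higher and lower (48.9% in all). The treated and untreated WT libraries did not overlap for 3 enzymes that were higher (DTYMK, SAMHD1 and, barely, DCK) and 2 that were lower (TK1 and DUT), against 36.1% and 36.7% of all genes. At an unadjusted p under 0.05, SAMHD1 was also higher (0.0379). The median log2 difference of the 8 was 0.10, against -0.02 over all genes. These counts turned on single libraries. Without WT clone 54 without 4-OHT 3 were higher and 1 lower, without the treated library of clone 54 0 were higher, and without the treated library of clone 15 1 was lower. In bulk RNA a lower level cannot be told apart as fewer cells that express a gene or less RNA per cell.

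In the KO clones the same treatment went with higher levels of nearly the whole set. RRM1, RRM2, TYMS, DTYMK, TK1 and DCK rose, by 1.92-fold (DCK) to 4.60-fold (RRM2), while DUT and SAMHD1 did not pass the test. Thus 6 of 8 were called higher and 0 lower, against 27.9% and 27.8% of all genes (55.7% in all). At an unadjusted p under 0.05, SAMHD1 was also higher (0.0448) and none was lower. The median log2 difference was 1.45, against -0.02 over all genes. The treated and untreated KO libraries did not overlap for 7 of the 8 enzymes, each higher with 4-OHT, where 39.6% of all genes were separated upward and 41.2% downward. Every alternative run, including each left-out library, kept at least 6 enzymes called higher.

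Whether the 2 genotypes responded differently was tested as the difference of their responses (KO response minus WT response). RRM1, RRM2, TYMS, TK1 and DTYMK had a more positive response in KO, by 1.22 to 2.51 on the log2 scale. That is 5 of 8 called higher and 0 lower, against 4.36% and 3.22% of all genes (7.58% in all), and at an unadjusted p under 0.05 none was lower. DUT (0.79 ± 0.24, SE) and DCK (0.67 ± 0.19) had limma adjusted p = 0.0921 and 0.0785 and were not called. For SAMHD1 the difference was -0.01 with a 95% interval of -0.39 to 0.36. Without the treated library of KO clone 69 the count fell to 3.

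Without 4-OHT the KO clones had less of 5 of the 8 enzymes than the WT clones. RRM1, RRM2, TYMS, TK1 and DTYMK were lower in KO, by 1.64-fold (RRM1) to 2.95-fold (TK1), and DUT, DCK and SAMHD1 did not pass the test. On this count 5 of 8 were lower and 0 higher, against 3.73% and 2.85% of all genes (6.58% in all), and none was higher at an unadjusted p under 0.05. Both KO libraries lay below both WT libraries for 6 enzymes, the 5 called and DCK, where 28.6% of all genes were separated downward and 27.8% upward. The median log2 difference was -0.81, against -0.00 over all genes. With only 1 untreated KO library left, whether clone 66 or 69 was removed, 0 enzymes were called, and only 17 and 4 genes of the whole table were called lower. The count was 3 without untreated WT clone 54 and 2 without the treated library of either KO clone.

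For the 5 enzymes called lower in KO without 4-OHT, the order was turned around with it, though TK1 and DTYMK were not called then. RRM1, RRM2, TYMS and DUT were higher in KO, by 1.42-fold (RRM1) to 2.37-fold (RRM2), so that 4 of 8 were called higher and 0 lower, against 6.77% and 7.62% of all genes (14.4% in all). None was lower at an unadjusted p under 0.05. Every one of the 8 enzymes had both KO libraries above both WT libraries, where 30.0% of all genes were separated upward and 31.4% downward. The median log2 difference was 0.58, against -0.01 over all genes. Single libraries decided this count too. It was 1 without either untreated KO library, without the treated library of WT clone 15 or without that of KO clone 66, and 0 without that of KO clone 69. The 4 comparisons share groups, so they are not independent of each other.

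**Figure D1:**
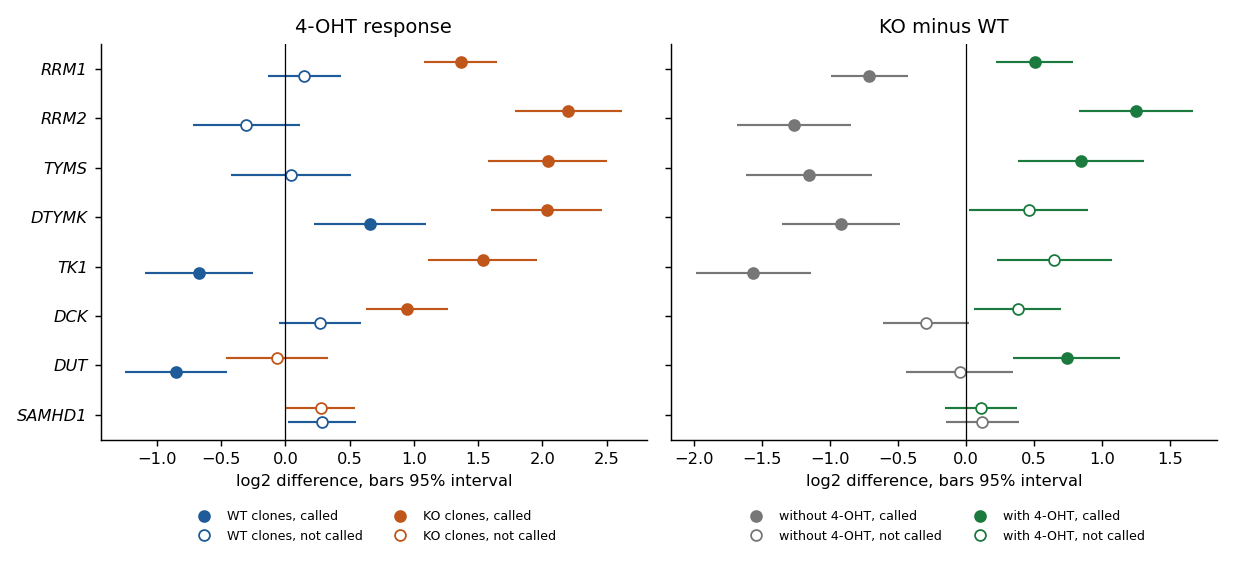
Log2 differences of the 8 enzymes (points) with 95% intervals (bars) for the 4-OHT response in WT and KO clones (left) and for KO minus WT without and with 4-OHT (right), filled where the limma adjusted p was under 0.05. The WT points lie between -0.85 and 0.66 and the KO points reach 2.20, and for RRM1, RRM2, TYMS, DTYMK and TK1 the KO minus WT points lie left of 0 without and right of 0 with 4-OHT.

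RRM2, the small subunit of the reductase whose supply limits the enzyme in dividing cells, had the widest range among the 4 groups on the fold scale. Its levels, in RPKM (reads per kilobase of transcript, relative to the library total, scaled by trimmed-mean factors), were 14 and 18 in WT clones 15 and 54 without 4-OHT and 10.8 and 15.3 with it. In KO clones 66 and 69 it went from 6.97 and 6.19 to 30.3 and 30.9. The WT libraries overlapped between treatments, the untreated KO libraries lay below all others and the treated KO libraries above all others. In KO it rose 4.60-fold, from 6.58 ± 0.55 to 30.6 ± 0.4 RPKM (SD, n = 2 clones, limma adjusted p = 5.41e-05). In WT it measured 16.0 ± 2.8 and 13.1 ± 3.2 RPKM, -0.30 ± 0.18 (SE) apart on the log2 scale (limma adjusted p = 0.201). With the clone as a block, which compares each clone with itself, that fall was called (adjusted p = 0.035), as it was without the treated library of WT clone 54 (-0.55, adjusted p = 0.0366). The responses differed by 2.51 ± 0.25 on the log2 scale (limma adjusted p = 0.00465). KO was 2.40-fold lower than WT without 4-OHT (adjusted p = 0.0131) and 2.37-fold higher with it (0.00855). The former call was lost without untreated KO clone 66 or 69 (adjusted p = 0.0797 and 0.115) and the latter without treated KO clone 69 (0.0695).

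RRM1, the large subunit, also rose in KO and was also lower in KO without and higher with 4-OHT, over a narrower range. In WT the signs differed, with 0.28 and 0.02 for RRM1 and -0.38 and -0.23 for RRM2 on the log2 scale in clones 15 and 54. It measured 27.0 and 35.0 RPKM in WT clones 15 and 54 without 4-OHT and 32.8 and 35.4 RPKM with it. KO clones 66 and 69 went from 19.3 and 18.2 to 48.5 and 48.2 RPKM. Again the WT libraries overlapped and the KO libraries lay outside their range on either side. The KO rise was 2.57-fold (log2 1.36 ± 0.12, limma adjusted p = 7.83e-05) and the WT difference 0.15 ± 0.12 (adjusted p = 0.347), which was called without untreated WT clone 54 (0.33, adjusted p = 0.0214). The responses differed by 1.22 ± 0.17 (limma adjusted p = 0.00893). KO was 1.64-fold lower without 4-OHT (adjusted p = 0.0212) and 1.42-fold higher with it (0.0344). The call without 4-OHT was lost without either untreated KO library (adjusted p = 0.111 and 0.152 for clones 66 and 69) and without either treated one (0.0507 and 0.0503). The call with 4-OHT was lost without untreated KO 66 or 69 (0.0638 and 0.0641), treated WT 15 or 54 (0.163 and 0.0777) or treated KO 66 or 69 (0.119 and 0.149).

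Since the subunits differed in range, their ratio shifted. RRM1 over RRM2 was 1.92 and 1.95 in untreated and 3.04 and 2.31 in treated WT clones 15 and 54, and 2.77 and 2.94 in untreated and 1.60 and 1.56 in treated KO clones 66 and 69. The treated KO libraries had the lowest ratios of the 8. RRM2B, the second small subunit, is known to serve resting cells and mitochondrial DNA, and it had the opposite genotype pattern with 4-OHT. It went from 11.8 and 12.6 to 34.1 and 33.3 RPKM in WT clones 15 and 54, and from 10.98 and 13.03 to 21.3 and 17.1 RPKM in KO clones 66 and 69. Its rise was 2.75-fold in WT and 1.59-fold in KO (limma adjusted p = 0.000108 and 0.00309). With 4-OHT it was 1.76-fold lower in KO (adjusted p = 0.00967), a call lost without treated WT 15 or treated KO 69 (0.066 and 0.0696). The responses differed by -0.79 ± 0.18 (limma adjusted p = 0.0421), a call lost with the clone block (0.0697) and when any library other than treated KO 66 was left out (0.0564 to 0.145). RRM2 over RRM2B thus was 1.19 and 1.42 in untreated WT, 0.635 and 0.476 in untreated KO, 0.316 and 0.460 in treated WT and 1.42 and 1.81 in treated KO. The ratio was lower in the treated WT and untreated KO libraries than in the other 4. Which gene was the higher rests on the listed transcript lengths, 1996 bases for RRM2 and 4931 for RRM2B. By reads RRM2B was above RRM2 in all 8 libraries, 1992 against 1462 where the gap was smallest (treated KO 69), so only the shift of the ratio is read here.

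**Figure D2:**
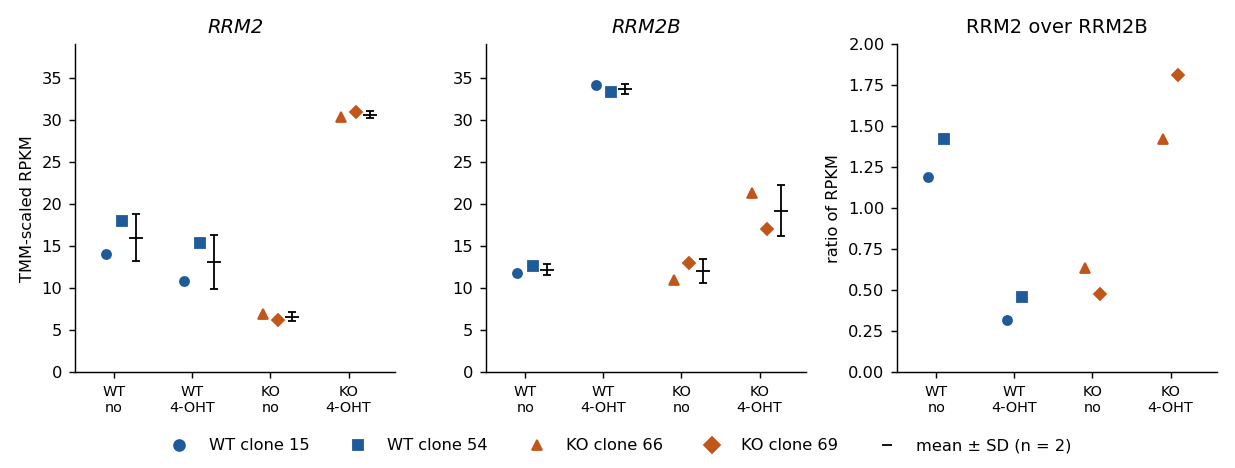
Levels of RRM2 and RRM2B and the ratio of the 2 in each library (points, TMM-scaled RPKM on a linear axis from 0; crossbars in the level panels give the mean ± SD of 2 clones). RRM2B rises to 34.1 and 33.3 RPKM in treated WT clones, where RRM2 stays at 10.8 and 15.3, and the ratio is highest, 1.42 and 1.81, in treated KO clones.

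TYMS, which methylates dUMP to thymidylate, was the least abundant of the enzymes in every library, with 44 to 209 reads. It measured 2.45 and 3.25 RPKM in untreated and 2.49 and 3.40 RPKM in treated WT clones 15 and 54. In KO clones 66 and 69 it went from 1.32 and 1.12 to 5.15 and 5.47 RPKM. The WT clones kept their order and hardly moved, and the KO libraries lay below and then above all of them. The 51 and 44 reads of the untreated KO libraries have 95% Poisson intervals of 38.0 to 67.1 and 32.0 to 59.1, and the 185 and 209 of the treated ones of 159.0 to 214.0 and 182.0 to 239.0, which cover counting error only. TYMS rose 4.11-fold in KO (limma adjusted p = 0.000121), and the WT difference was 0.04 ± 0.20 on the log2 scale (95% interval -0.42 to 0.51). The difference of responses was 1.997 ± 0.28 (limma adjusted p = 0.00894), a call lost without treated KO 69 (0.0517). KO was 2.22-fold lower without 4-OHT (adjusted p = 0.0219) and 1.80-fold higher with it (0.0329). The former was lost without untreated WT 54 (0.0765), untreated KO 66 or 69 (0.099 and 0.153) or treated KO 66 or 69 (0.0526 and 0.0528). The latter was lost without untreated KO 66 or 69 (0.0559 each), treated WT 15 (0.161) or treated KO 66 or 69 (0.104 and 0.165).

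DTYMK, the thymidylate kinase through which both sources of thymidylate pass, was the only enzyme of the 8 called higher with 4-OHT in both genotypes. WT clones 15 and 54 went from 31.9 and 43.6 to 51.2 and 67.5 RPKM, and KO clones 66 and 69 from 21.4 and 18.1 to 86.1 and 75.9 RPKM. Treated libraries lay above untreated ones in both genotypes, and treated KO above treated WT. The rise was 1.58-fold in WT (limma adjusted p = 0.0219) and 4.09-fold in KO (9.14e-05). The WT call was lost without untreated WT 15 or treated WT 54 (0.0982 and 0.123). A difference of 1.38 ± 0.26 on the log2 scale between the responses was called (limma adjusted p = 0.0246). It was lost without untreated KO 66 or 69 (0.0642 and 0.105), treated WT 15 (0.0776) or treated KO 66 or 69 (0.0819 and 0.078). KO was 1.89-fold lower than WT without 4-OHT (adjusted p = 0.0343), a call lost without untreated WT 54 (0.105), untreated KO 66 or 69 (0.118 and 0.206) or treated KO 66 or 69 (0.0648 and 0.0644). With 4-OHT the log2 difference was 0.46 ± 0.19 and was not called (adjusted p = 0.147).

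TK1, the cytosolic thymidine kinase that is made in S phase and degraded after mitosis, moved in opposite directions in the 2 genotypes. WT clones 15 and 54 had 35.4 and 47.6 RPKM without 4-OHT and 21.7 and 30.4 RPKM with it. KO clones 66 and 69 had 14.2 and 13.5 RPKM without and 40.5 and 40.1 RPKM with it. Both WT clones fell and both KO clones rose, and in neither genotype did the treatments overlap. TK1 fell 1.59-fold in WT (log2 -0.67 ± 0.18, limma adjusted p = 0.0176), a call lost without untreated WT 54 or treated WT 15 (0.0716 and 0.0894). In KO it rose 2.90-fold (limma adjusted p = 0.000302). The responses differed by 2.21 ± 0.26 on the log2 scale (limma adjusted p = 0.00586). Without 4-OHT, KO was 2.95-fold lower, the widest genotype gap of the 8 (adjusted p = 0.00864), and this call was lost without untreated KO 66 or 69 (0.0712 and 0.0777). With 4-OHT the difference of 0.65 ± 0.18 was just short of the threshold (adjusted p = 0.054). It was called with library totals alone as scaling (0.0429), with limma-voom on reads (0.0333), and without untreated WT 15 or 54 (0.0274 and 0.0263) or treated WT 54 (0.0322).

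TK2, the mitochondrial thymidine kinase, fell with 4-OHT in WT as TK1 did, and in KO fell where TK1 rose. It fell with 4-OHT in both genotypes, from 5.75 ± 0.07 to 3.97 ± 0.17 RPKM in WT and from 5.69 ± 0.23 to 3.34 ± 0.04 RPKM in KO (SD, n = 2; limma adjusted p = 0.00335 and 0.000451). TK1 over TK2 was 6.21 and 8.21 in untreated and 5.31 and 7.90 in treated WT clones 15 and 54. In KO clones 66 and 69 the same ratio was 2.56 and 2.31 without and 12.03 and 12.11 with 4-OHT. The treated KO libraries had the highest ratios and the untreated KO libraries the lowest.

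DCK, the kinase that starts salvage of deoxycytidine, deoxyadenosine and deoxyguanosine, had the smallest of the 6 called KO responses. WT clones 15 and 54 had 6.02 and 4.78 RPKM without and 6.03 and 6.98 RPKM with 4-OHT. KO clones 66 and 69 went from 4.23 and 4.47 to 8.10 and 8.84 RPKM. In WT the higher untreated and the lower treated library, both of clone 15, were nearly equal, and clone 54 alone moved. The KO rise was 1.92-fold (limma adjusted p = 0.000814). The WT difference was 0.27 ± 0.14 on the log2 scale (adjusted p = 0.14), and was called without untreated WT 15 (0.43, adjusted p = 0.0388). No genotype difference was called, neither without 4-OHT (-0.30 ± 0.14, limma adjusted p = 0.227) nor with it (0.38 ± 0.14, 0.109). The difference of responses was called with limma-voom (adjusted p = 0.0421) and without untreated WT 54 (0.0404). DGUOK, the mitochondrial deoxyguanosine kinase, was not called with 4-OHT in either genotype. It was higher in KO both without (64.9 ± 3.0 against 49.9 ± 2.7 RPKM, limma adjusted p = 0.0271) and with 4-OHT (69.7 ± 0.2 against 46.7 ± 0.4 RPKM, 0.00591). The first of these calls was lost without untreated WT 54 (0.0778), untreated KO 66 or 69 (0.111 and 0.177) or treated KO 66 or 69 (0.0578 and 0.0624), the second without treated KO 69 (0.0526).

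DUT, the dUTPase, was the only enzyme called lower with 4-OHT in WT and not called higher with it in KO. It measured 15.0 and 14.6 RPKM in untreated and 6.71 and 9.90 RPKM in treated WT clones 15 and 54. KO clones 66 and 69 had 13.7 and 14.9 RPKM without and 14.4 and 12.9 RPKM with 4-OHT. Only the 2 treated WT libraries stood below the rest, and the other 6 lay between 12.9 and 15.0. The WT fall was 1.80-fold (log2 -0.85 ± 0.17, limma adjusted p = 0.00464), and it was called in all 20 alternatives. In KO the difference was -0.07 ± 0.17 (95% interval -0.46 to 0.33). With 4-OHT, DUT was 1.67-fold higher in KO (limma adjusted p = 0.03). This call was lost without untreated KO 66 or 69 (0.0565 and 0.0571), treated WT 15 (0.0814) or treated KO 66 or 69 (0.126 and 0.111). The difference of responses, which was not called, passed with limma-voom (adjusted p = 0.0309) and without treated WT 54 (0.0154).

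SAMHD1, the triphosphohydrolase that removes deoxynucleoside triphosphates, was the steadiest of the 8. It had 5.37 and 6.16 RPKM in untreated and 6.63 and 7.47 RPKM in treated WT clones 15 and 54, and 5.90 and 6.64 RPKM in untreated and 7.68 and 7.50 RPKM in treated KO clones 66 and 69. Each clone was higher with 4-OHT, by 0.30, 0.27, 0.37 and 0.17 on the log2 scale in clones 15, 54, 66 and 69. Neither response was called (0.29 ± 0.11 in WT and 0.27 ± 0.11 in KO, limma adjusted p = 0.0721 and 0.0749). The WT response was called with limma-voom (0.0409) and without untreated WT 54 (0.0493), and the KO response with limma-voom (0.0406) and with only the groups compared in the fit (0.0396). KO minus WT was 0.12 ± 0.11 without and 0.11 ± 0.11 with 4-OHT, with 95% intervals of -0.15 to 0.39 and -0.16 to 0.37.

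**Figure D3:**
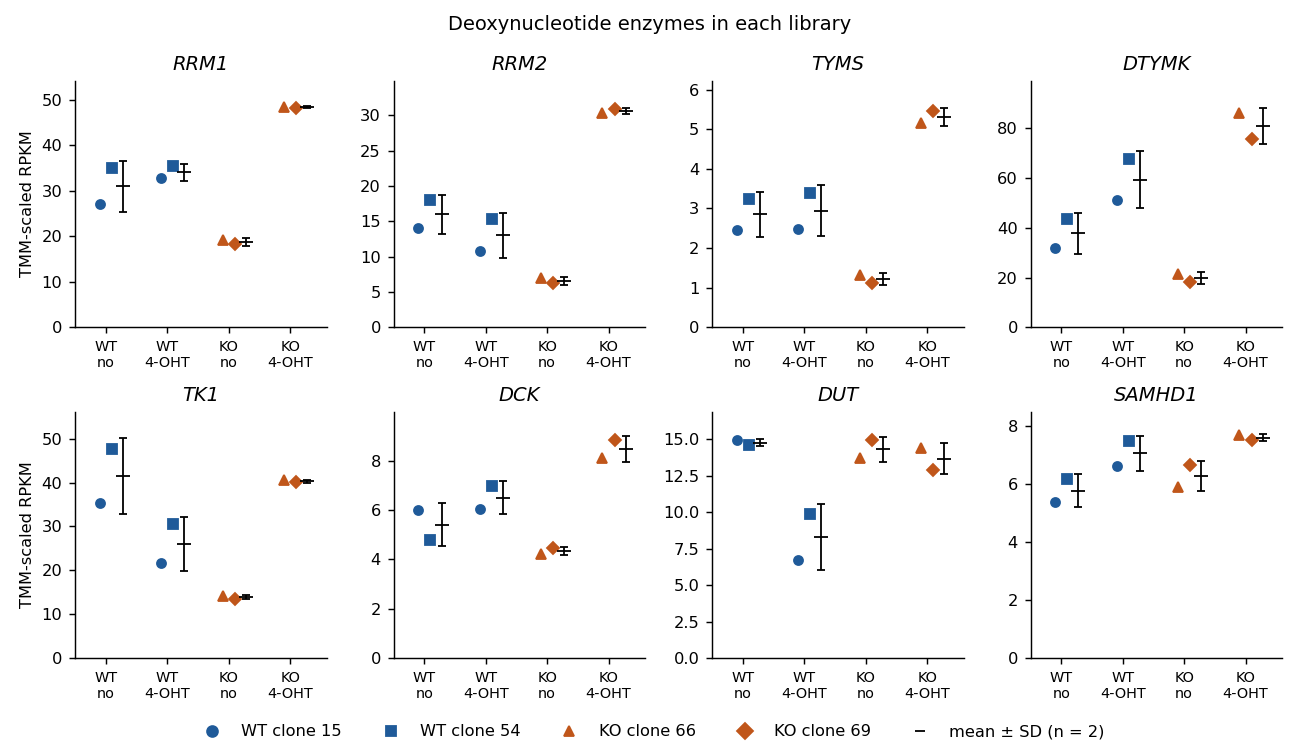
Level of each of the 8 enzymes in each library (points, TMM-scaled RPKM on linear axes from 0, 1 axis range per gene; crossbars give the mean ± SD of 2 clones). Treated KO clones are at the top for all but DUT and TK1, untreated KO clones are at the bottom for RRM1, RRM2, TYMS, DTYMK, TK1 and DCK, and DUT is low in treated WT clones alone.

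On the per-length scale of RPKM, treated KO clones had DTYMK highest (81.0 ± 7.2), then RRM1 (48.4 ± 0.2), TK1 (40.3 ± 0.3), RRM2 (30.6 ± 0.4), DUT (13.7 ± 1.1), DCK (8.47 ± 0.53), SAMHD1 (7.59 ± 0.13) and TYMS (5.31 ± 0.23; SD, n = 2). Both treated KO libraries of each enzyme lay above both of the next in this order. DCK (8.10 and 8.84) and SAMHD1 (7.68 and 7.50) were close, and their means differed by less than 2 SD of DCK. The order between genes leans on the transcript length that the table used. Divided by all exon bases of the gene instead, TK1, RRM1 and DTYMK were level at 36.4, 36.4 and 36.0 RPKM, with RRM2 at 11.5. Summed over the 8 enzymes, levels were 137 and 173 RPKM in untreated WT, 87.0 and 83.1 in untreated KO, 138 and 176 in treated WT and 241 and 230 in treated KO. The treated and untreated WT sums were thus alike within each clone, although TK1 made up 25.8% and 27.5% of the untreated and 15.7% and 17.3% of the treated WT sum, and DTYMK 23.3% and 25.2% against 37.0% and 38.3%.

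The wider pathway was read from lists of named genes. Of 13 S phase reference genes, 12 rose with 4-OHT in KO and 0 fell, with a median of 3.82-fold, and in WT 0 rose and 2 fell, where 27.9% and 27.8% of all genes rose and fell in KO and 24.7% and 24.2% in WT. The WT counts were 3 and 3 with the clone as a block, 5 and 1 without untreated WT 54, and 0 and 4 without untreated WT 15. MKI67, a mark of cycling cells, went from 2.20 ± 0.19 to 13.8 ± 0.1 RPKM in KO (SD, n = 2; limma adjusted p = 1.57e-05), and PCNA, the sliding clamp, from 31.4 ± 1.1 to 108 ± 3 RPKM (1.46e-05). In WT they measured 5.98 ± 1.36 and 5.98 ± 0.24 RPKM, and 53.7 ± 6.3 and 64.7 ± 6.4 RPKM. The difference of responses was called for all 13, upward (4.36% of all genes), and for 9 to 13 with 1 library left out. The 2 that fell were MCM6 and MCM3. MCM3, at -0.47 ± 0.16 (SE, limma adjusted p = 0.0449), lost its call without untreated WT 54, treated WT 15 or any of the 4 KO libraries (0.0667 to 0.221). MCM6, a helicase subunit, was lower in WT with 4-OHT (5.81 ± 1.04 to 2.15 ± 0.60 RPKM, adjusted p = 0.00111) and was the 1 reference gene not called in KO. Without 4-OHT 11 of 13 were lower in KO (3.73% of all genes), and with it 12 were higher (6.77%). The first count was 0 without untreated KO 66 or 69, 6 without untreated WT 54 and 7 without treated KO 66 or 69. The second was 1 without treated WT 15, 5 without treated KO 66 and 0 without treated KO 69. The calls of MKI67 and PCNA without 4-OHT were lost without untreated KO 66 (adjusted p = 0.0655 and 0.0797) or 69 (0.0764 and 0.113). Their calls with 4-OHT were lost without treated KO 69 (0.0601 and 0.0628), and that of PCNA also without treated WT 15 (0.0535).

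Among 16 known regulators of these enzymes, 12 rose and 1 fell with 4-OHT in KO, where 55.7% of all genes were called, and 4 rose and 2 fell in WT, a smaller share than the 48.9% of all genes called there. CDK2, the checkpoint kinase CHEK1 and CDK1 had the smallest p in KO (2.68-fold, 3.39-fold and 3.84-fold higher; limma adjusted p = 1.45e-05, 1.98e-05 and 2.78e-05). In WT, CHEK1 rose 1.98-fold and E2F2, an E2F factor, fell (limma adjusted p = 0.000348 and 0.000767). E2F2 had 110 and 166 reads in untreated and 7 and 19 in treated WT clones 15 and 54. The size of its fold depends on the 0.1 RPKM added before the logarithm and is not given. The responses of 8 regulators differed, all upward in KO, where 4.36% of all genes were called upward. Fewer regulators did so without untreated or treated KO 69. CDK1, the cyclin CCNA2 and CDK2 led by p, with differences of 1.91 ± 0.19, 2.71 ± 0.27 and 1.15 ± 0.12 on the log2 scale (limma adjusted p = 0.00465 each). No call named here for the regulators was lost in any alternative that tested the gene.

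The folate cycle gives TYMS its methyl donor. With 4-OHT, 7 of its 11 genes rose and 1 fell in KO, and 1 rose and 2 fell in WT, where 55.7% and 48.9% of all genes were called in either direction. The folate carrier SLC19A1 rose in both, 1.99-fold in WT and 3.35-fold in KO (limma adjusted p = 0.00182 and 9.21e-05). MTHFD1 and SHMT1 rose 1.61-fold and 2.48-fold in KO (adjusted p = 0.000446 and 0.000504). In WT, the hydrolase GGH fell 1.34-fold (limma adjusted p = 0.0102), a call lost without treated WT 15 (0.0558). The responses of 4 genes differed, each more positive in KO (4.36% of all genes), SHMT1, GGH and MTHFD1 among them. That count was 2 without either library of WT 54, 1 without untreated KO 69, treated WT 15 or treated KO 69, and 0 without untreated KO 66. SHMT1, which moves a carbon unit from serine to folate in the cytosol, had a difference of 1.32 ± 0.24 on the log2 scale (SE, limma adjusted p = 0.022). Its call was lost without untreated KO 66 or 69 (0.0857 and 0.083), treated WT 15 (0.067) or treated KO 66 or 69 (0.0642 and 0.0942). No folate gene differed between genotypes without 4-OHT at the adjusted threshold, where 6.58% of all genes did. With 4-OHT 4 were higher in KO (6.77% of all genes), and all of these calls were lost without treated WT 15 or treated KO 69.

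Of 19 genes of nucleotide breakdown, salvage and pool cleaning, 8 rose and 3 fell with 4-OHT in WT, near the 48.9% of all genes called there, and 12 rose and 4 fell in KO, against 55.7%. PNP, the purine nucleoside phosphorylase, rose 9.51-fold in WT and 7.16-fold in KO (limma adjusted p = 2.2e-06 and 2.37e-06). NT5E, the surface nucleotidase known as CD73, went from 27.8 ± 7.8 to 368 ± 42 RPKM in WT and from 8.68 ± 0.84 to 292 ± 16 RPKM in KO (SD, n = 2; 1.23e-05 and 2.67e-06). UPP1, the uridine phosphorylase, rose 3.05-fold and 3.68-fold (2.56e-05 and 1.05e-05). The responses of 4 genes differed, those of CDA, NUDT1, UCK1 and NT5E, where 7.58% of all genes were called in either direction. CDA, the cytidine deaminase, was at 0.496 and 0.867 RPKM in untreated and 0.888 and 0.942 RPKM in treated WT clones, and at 0.767 and 0.860 against 0.0589 and 0 RPKM in KO clones (limma adjusted p = 0.00875 for the difference). That call rests on few reads. CDA had 9 and 15 reads in untreated and 17 and 16 in treated WT clones, and 14 and 16 against 1 and 0 in KO clones. NUDT1, which clears oxidised purine triphosphates, had a response 1.41 ± 0.24 more positive in KO (limma adjusted p = 0.0178). This call was lost without untreated KO 66 or 69, treated WT 15, or treated KO 66 or 69 (0.0529 to 0.0785), and that of UCK1, a uridine-cytidine kinase (0.64 ± 0.11, 0.0191), without the same 5 libraries.

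Nucleotide kinases and carriers showed no called difference between the responses, 0 of 11 and 0 of 6 genes tested. Since 7.58% of all genes were called there, lists this short do not stand out by holding none. The kinase NME2 was near 0 in all libraries and was not tested. Of the kinases 6 rose and 2 fell in WT, and 4 rose and 2 fell in KO, the latter at the share of all genes called (55.7%, and 48.9% in WT). NME1, which makes triphosphates from diphosphates, rose 2.63-fold and 2.15-fold in WT and KO, and AK6 1.66-fold and 1.52-fold (limma adjusted p from 3.21e-05 to 0.000839). Of the 6 carriers 4 rose and 2 fell in WT, so all were called there, against 48.9% of all genes. In KO SLC29A1 rose and SLC29A2 and SLC25A36 fell, again near the share of all genes in KO. The KO call of SLC29A2 (limma adjusted p = 0.0148) was lost without untreated or treated KO 69 (0.0895 and 0.0947). SLC29A1, the equilibrative nucleoside transporter, rose 2.79-fold and 4.38-fold (9.22e-05 and 1.48e-05), and the mitochondrial carrier SLC25A36 fell 2.13-fold and 1.88-fold (0.000591 and 0.00107).

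Genotype differences were also called in the regulator and folate lists. Without 4-OHT, 7 of 16 regulators were lower in KO (3.73% of all genes), and 0 without untreated KO 66 or 69. They were led by CDK2, CDK1 and CCNA2 (1.85-fold, 2.12-fold and 2.57-fold; limma adjusted p = 0.00632, 0.00964 and 0.0128). Those calls were lost without untreated KO 66 (0.0511, 0.0751 and 0.0827) or KO 69 (0.0664, 0.0902 and 0.115). NT5E was 3.13-fold lower in KO (adjusted p = 0.00799), also lost without either of these libraries (0.0679 and 0.0777). With 4-OHT, 8 of 16 regulators were higher in KO (6.77% of all genes), 4 without untreated KO 66 or 69, 1 without treated WT 15, 2 without treated KO 66 and 0 without treated KO 69. CCNA2 and CDK1 led (2.55-fold and 1.78-fold; limma adjusted p = 0.00844 and 0.0109), and their calls were lost without treated KO 69 (0.0696 and 0.0869), that of CCNA2 also without treated WT 15 (0.0565). The folate genes GGH and SHMT1 were 1.57-fold and 2.14-fold higher in KO (limma adjusted p = 0.0093 and 0.01). Their calls were lost without treated WT 15 (0.0649 and 0.0611) or treated KO 69 (0.0696 and 0.081). CMPK2, a mitochondrial nucleotide kinase known as interferon-induced, was called higher in KO without and with 4-OHT (limma adjusted p = 0.0326 and 0.00893) on few reads. It had 9 and 12 reads in untreated and 2 and 2 in treated WT clones, and 25 and 34 against 11 and 13 in KO clones, so the size of its fold depends on the pseudocount and is not given. The former call was lost when any 1 of the 8 libraries was left out (0.0516 to 0.191), the latter without treated WT 15 or treated KO 69 (0.06 and 0.0727).

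**Figure D4:**
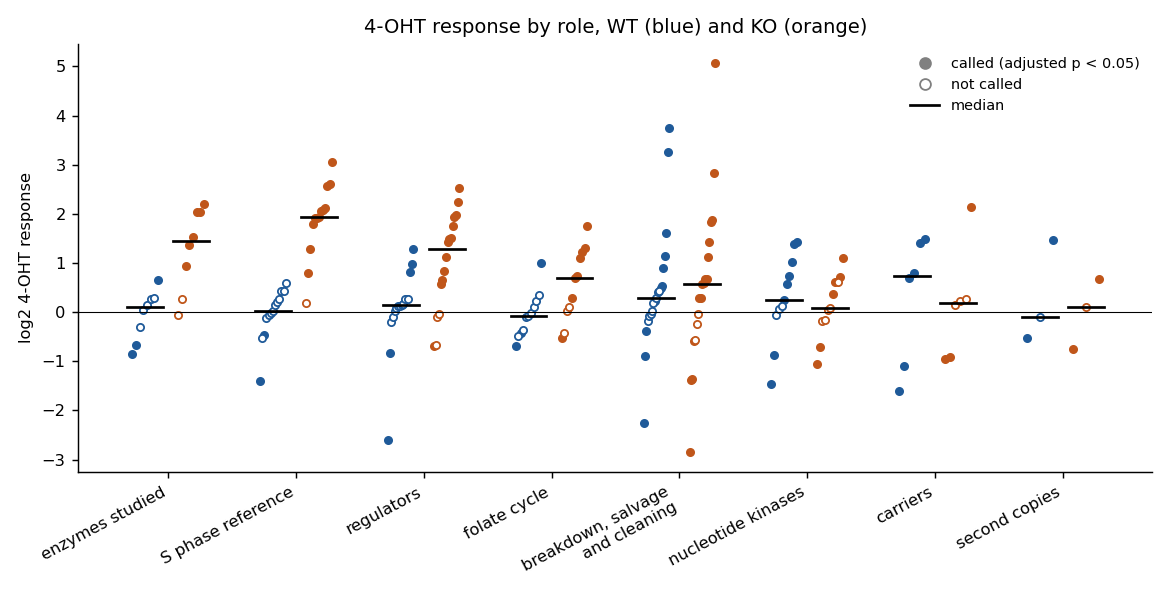
Log2 response to 4-OHT of every tested gene in 8 lists (points, blue for WT and orange for KO clones, filled where the limma adjusted p was under 0.05; bars give list medians). Medians of the 8 enzymes and of the S phase reference genes are 0.10 and 0.02 in WT and 1.45 and 1.93 in KO, while kinases, carriers and breakdown genes have called points in both genotypes.

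Over the 8 libraries, which share 4 clones and 2 treatments, the enzyme pairs most alike were RRM1 and TYMS, RRM2 and TYMS, RRM1 and DTYMK, RRM1 and RRM2, and TYMS and DTYMK, with Pearson r of log2 levels of 0.9899, 0.9825, 0.9739, 0.9585 and 0.9555. DUT stood apart, with r of -0.3171 to 0.1413 against the other 7. Among 12614 genes with a mean of at least 1 RPKM, those most like RRM1 were KIF2C, KIF4A and KIF14 (0.9991, 0.998 and 0.9974), those most like RRM2 were FANCI, PKMYT1 and CCNA2 (0.9969, 0.9951 and 0.9951), and those most like TYMS were FAM83D, ESPL1 and CIT (0.999, 0.9965 and 0.9965). DTYMK was most like ERCC6L, TRAF2 and CKS1B (0.9973, 0.9959 and 0.9952). TK1 was most like MYBL2 (0.9872), followed at a distance by PIMREG and ATP5ME (0.9649 and 0.9644). For DCK the nearest were RNASEH1-AS1, RNVU1-6 and TRMT112 (0.9829, 0.9766 and 0.9762), for DUT PSTK, ZEB1-AS1 and AC090152.1 (0.9791, 0.9715 and 0.9704), and for SAMHD1 RPS19P1, GDI2 and SNORD49A (0.9856, 0.9731 and 0.9707). With this many candidates and 8 points, high values are found for any gene, and they are given as a description.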

How the data were processed

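Total RNA from 8 libraries, 2 clones in each of 4 groups, was sequenced from a stranded kit, per the labels' protocols. The submitters' processing notes name STAR, featureCounts, edgeR and GRCh38, and no source used here gives their versions, settings, strandedness or roles. A single table was deposited by the authors, and its values are RPKM although its name speaks of counts. A minus sign after a clone number in the column names was read as 4-OHT negative, which no label states. Multiplied by a GENCODE release 29 transcript length and 1 total per library (22.1 to 24.9 M reads), 100% of values gave whole reads within 0.1 read. For 5621 genes, RRM1, TYMS and DUT among them, the length was inferred from the values' own steps. The 45 pseudoautosomal Y copies were left out.

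Genes with 10 reads per median-sized library (a CPM of 0.425) in at least 2 libraries and 15 in total were kept, 16543 in all. RPKM were divided by trimmed-mean (TMM) factors from the recovered reads (0.9536 to 1.029). Then limma 3.58.1 in R 4.3.3, with trend and robust moderation, fitted 4 group means to log2(RPKM + 0.1) with 4 residual degrees of freedom. Fold changes are on that scale, which understates changes of low genes. Tests are two-sided, Benjamini-Hochberg adjusted over all genes tested, with a threshold of 0.05, and were checked on simulated data. The plan named this test for RPKM, and edgeR's count test was not used.

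Equal numbers mark the same clone per the labels, so libraries are paired within a genotype; deviations of the clones from their group means correlated at 0.30879 in WT and 0.0053578 in KO across genes. The series' design text calls the clones of both genotypes independent, and each clone gave 1 library per treatment. The p-values thus rest on the spread between clones within groups, pooled over the 4 groups and moderated across genes. They do not measure the spread of the compared groups alone. Depth limits precision most for TYMS, and read intervals cover counting error only. The 8 enzymes and the lists were chosen with earlier results of these data known. Named were all 8 enzymes and, per list and comparison, genes among the up to 3 called with the smallest p; where a list's few called genes are all listed, some fall outside this rule and were chosen after their values were seen. Alternatives changed the pseudocount, scaling, filter, test, clone block and libraries used. Some genes that the rule names are left out of the text.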

Additional observations from a re-analysis of the deposited data

Results flagged for a closer look

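The 4-OHT response differed between the KO and WT clones for 5 enzymes by the test of the difference itself (limma, adjusted over all genes). The KO response exceeded the WT response by 2.5056 on the log2 scale for RRM2, 2.2087 for TK1, 1.997 for TYMS, 1.3759 for DTYMK and 1.2158 for RRM1. Each of these had both KO clones above both WT clones in their own responses. The same held for DCK and DUT, which were not called, so it does not set the 5 apart. The 5 were picked by these same responses and the share of all genes with this order is not given, so it is a description only. RRM2 moved by 2.10 and 2.30 in KO clones 66 and 69 and by -0.38 and -0.23 in WT clones 15 and 54. TK1 moved by 1.51 and 1.56 in the KO clones and by -0.70 and -0.64 in the WT clones. Groups of 2 libraries are too small for a check of single outlying samples.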

How the results depend on the processing

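For the KO response, 6 enzymes were higher in each alternative except limma-voom and the fit of only the groups compared, where 7 were. Leaving out 1 library in turn gave 0 to 3 higher and 1 to 3 lower in the WT response, 6 higher in the KO response, 0 to 5 lower for KO minus WT without 4-OHT, 0 to 5 higher with it and 3 to 6 higher for the difference of responses. Without a filter on low genes, which raised the genes tested to 36398, 0 were higher and 1 lower in the WT response, 1 was lower in KO without and 1 higher with 4-OHT. With only the groups compared in the fit, 0 were higher and 1 lower in the WT response and 2 were lower in KO without 4-OHT. With limma-voom 2 were higher in WT. The replicate block, the clone as a fixed term, gave 1 higher and 3 lower in WT. It gave 6 higher in KO and 5 for the difference of responses. Among the 8 enzymes it changed only the call of RRM2 in WT. Outside the 8, the call of RRM2B for the difference of responses was lost and the S phase counts in WT moved. The block could not be fitted between genotypes. The cause of these changes was not tested. Signs changed only near 0. TYMS in WT was -0.0212 with library totals as scaling and -0.1716 to 0.2532 with 1 library left out (negative without untreated WT 15, -0.1557, or treated WT 54), and RRM1 in WT was -0.04027 (without untreated WT 15) to 0.3253. DUT was -0.1445 to 0.02743 in the KO response (positive without treated KO 69) and -0.09885 to 0.02034 in KO minus WT without 4-OHT (positive without untreated KO 66). The difference of responses of SAMHD1 was 0.01653 with library totals, and -0.1063 to 0.08355 with 1 library left out (positive without untreated WT 15, untreated KO 69, treated WT 54 or treated KO 69). Of 1358 pathway list counts under alternatives, 1177 stayed within 1.5 times and 181 moved. Added choices, TMM factors over all genes and exon lengths for the order of levels, were made after seeing the data. DESeq2 and edgeR were planned and not run, since the deposited values are RPKM; the planned DESeq2 size factors were computed as median ratios instead. A left-out library leaves 1 sample in its group, assumed to vary like the others.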
